A study of Homo sapiens with 12 samples.

Results

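Heat shock proteins and cochaperones were examined in 12 RNA sequencing libraries of MDA-MB-231, a triple negative breast cancer cell line, grown as droplets of cells in Matrigel. The genes were HSPA6, HSPA1A, HSPA1B, HSPA8, HSPH1, DNAJB1, HSPB1, HSP90AA1, HSPE1 and BAG3, found by matching their symbols to the Ensembl identifiers of the count table, which gave 10 of 63568 identifiers. HSPA1A and HSPA1B are near-identical copies and were also summed.

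All cells were of one line with nuclear GFP. The 6 conditions, with 2 libraries each, were untreated cells at day 2 (C1), untreated cells at day 4 (C2), and cells at day 4 that had received Paclitaxel, on day 2 by the labels, at 0.0005, 0.005, 0.05 or 0.5 μM. The methods give a later day for the drug in the imaging cultures, a day after the cells used here were collected. No day of treatment is given there for the RNA cultures. How long these cells were exposed therefore rests on the labels alone and is uncertain. Paclitaxel binds microtubules and was used in the study to ask whether cells that settle towards the bottom of the gel do so actively. The same enzymatic digestion of the gel, in which every culture was kept warm before lysis, was applied to all conditions, so every level given here was measured after it.

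Heat shock proteins are molecular chaperones that bind unfolded or newly made proteins and keep them from aggregating. HSP70 proteins bind and release their clients in a cycle driven by ATP, in which HSP40 proteins deliver the client and nucleotide exchange factors reset the chaperone. Some of the genes are expressed at high levels in all growing cells, and others are nearly silent until heat, proteotoxic drugs or other stress activate heat shock factor HSF1, which binds repeated short units in their promoters known as heat shock elements. Tumour cells commonly carry high levels of several of these proteins.

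The promoters are shown because the genes that moved with dose and the genes that did not could be compared by this element. The 250 bases upstream of the canonical start of each gene (GENCODE release 44 on GRCh37, the build of the files) were searched on both strands for the palindromic motifs GAANNTTC and TTCNNGAA, where N is any base. One or both were found in 9.42% of 19881 promoters of protein-coding genes, and in the promoters of 8 of the 10 genes. A 3-unit motif, GAANNTTC extended at its right end by NNGAA, which on either strand overlaps the shorter motifs, was found in 0.322% of all promoters and in those of HSPA6, HSPA8, HSPH1 and HSP90AA1. In the stretches below, written 5′ to 3′ on the strand of the gene, capitals mark motif letters.
HSPA6, chr1:161494241-161494283, plus strand: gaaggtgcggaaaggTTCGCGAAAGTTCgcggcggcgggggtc
HSPA1A, chr6:31783199-31783236, plus strand: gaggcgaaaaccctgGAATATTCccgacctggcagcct
HSPA1B, chr6:31795395-31795432, plus strand: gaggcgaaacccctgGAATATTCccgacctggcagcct
DNAJB1, chr19:14629234-14629271, minus strand: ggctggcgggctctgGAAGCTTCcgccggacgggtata
HSPH1, chr13:31736073-31736115, minus strand: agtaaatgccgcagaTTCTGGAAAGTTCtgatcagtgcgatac
HSPA8, chr11:122932872-122932914, minus strand: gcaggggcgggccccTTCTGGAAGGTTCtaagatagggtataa
HSP90AA1, chr14:102553442-102553484, minus strand: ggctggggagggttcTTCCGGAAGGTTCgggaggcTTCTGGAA
HSPB1, chr7:75931793-75931830, plus strand: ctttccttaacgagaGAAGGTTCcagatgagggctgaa

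The HSPA1A and HSPA1B promoters had the same base at 235 of 249 aligned positions (94.4%), and the motif ended at -99 and -98 bases from the start. In HSPA6, HSPH1, HSPA8 and HSP90AA1 a 3-unit motif lay within 100 bases of the start, and HSPA8 held a second one further upstream. No match was found in the windows of HSPE1 and BAG3, which says only that these letters are not in the window. A match describes the sequence and does not show that a factor was bound in these cells.

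**Figure D1:**
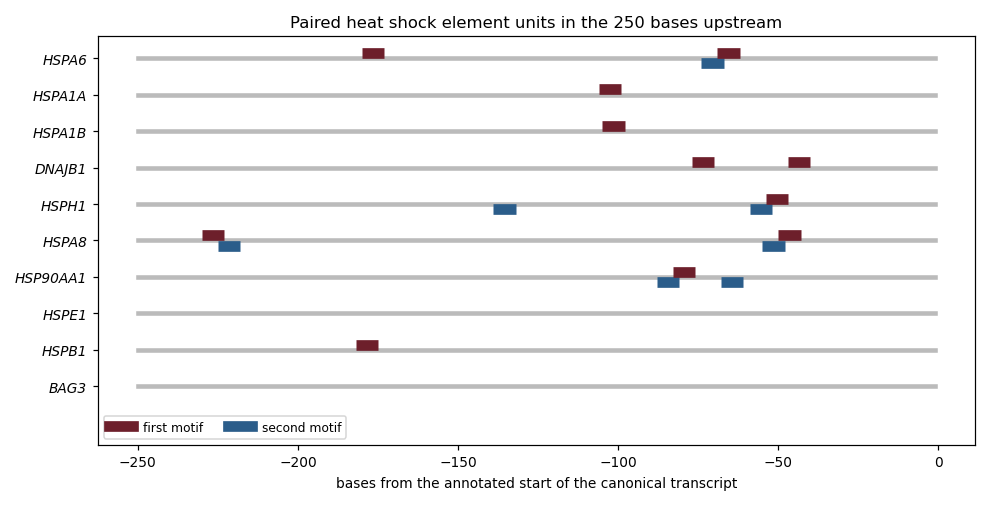
Positions of the motifs in the 250 bases upstream of each gene. The x axis gives bases from the annotated start, each grey line is 1 promoter, red boxes mark the first motif (GAANNTTC) and blue boxes the second (TTCNNGAA); 8 of the 10 promoters hold at least 1 box, and those of HSPE1 and BAG3 hold none.

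The libraries held 38380629 to 79169121 counts, with a median of 65977095.5, so that all 10 genes passed the filter on low counts that left 25249 genes for testing. Markers of the line were checked: VIM (797 to 1366 CPM, counts scaled to a common library size), CD44 and EGFR were abundant, ESR1 reached at most 0.460 CPM and PGR 0.0867 CPM, and ERBB2 lay between 26.6 and 52.4 CPM. PDGFRA, a fibroblast receptor among the markers of other cells, ran from 0.115 to 2.16 CPM and was higher at 0.5 μM than in C2 (log2 fold change 3.09, SE 0.44, edgeR adjusted p = 0.00274), and EGFR was lower in treated than in untreated libraries (-0.46, SE 0.15, edgeR adjusted p = 0.0281). COL1A1, another fibroblast marker, ran from 4.80 to 9.85 CPM. With C1 left out it was not called in treated against untreated libraries (0.40, SE 0.17, edgeR adjusted p = 0.131). CDH1 reached at most 0.201 CPM and EPCAM ran from 4.37 to 6.77 CPM. The part of these markers in the results was not tested. The 2 C1 libraries stood apart from the rest, since their counts differed from each other with a chi-square of 254 per degree of freedom, against 7.07 to 42.5 within the other conditions. Mitochondrial genes took 7.74% of the counts in C1 replicate 2, the highest share of all libraries, and 4.19% in C1 replicate 1. The main counts of genes called, and the correlations between the 10 genes, are therefore also given without these libraries. The methods call the libraries biological replicates, but do not say what separated them, so p-values measure the spread between these samples.

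The genes spanned a wide range of levels. Scaled for exon length as RPKM (CPM per kilobase of exon, mean of the 6 conditions), HSPA8 and HSP90AA1, the constitutive cytosolic HSP70 and an HSP90, were at 557 and 438 RPKM. HSPB1, a small heat shock protein, was at 136 RPKM. HSPH1 (39.2), HSPE1 (37.5), DNAJB1 (33.7), HSPA1B (28.9) and BAG3 (27.9) lay close together on the RPKM scale, and HSPA1A and HSPA6 were lowest at 1.85 and 1.67 RPKM. The length was that of all annotated exons merged. It exceeded the canonical transcript for DNAJB1 (8188 against 2242 bases), HSPE1 (1823 against 557) and HSPH1 (8391 against 5244), among others. For HSPA1B both were 2517 bases, so the closeness and order of these genes depend on the length used.

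The level of HSPA1A relative to HSPA1B is uncertain, as the authors kept uniquely aligned reads. Of all stretches of 100 bases in the HSPA1A transcript, 72.4% occur identically in HSPA1B, and the longest identical run is 1715 bases. HSPA1A (chr6:31783320-31785723) held 3500 counts over the 12 libraries and HSPA1B (chr6:31795515-31798031) 57086. In addition, 1 identifier without a symbol followed HSPA1A to within 5.52% in every library and 2 followed HSPA1B to within 9.83% and 15.97%, but 1 also followed BAG3, to within 17.42%, so that a match at the wider distances need not mean shared reads. HSPA6 (chr1:161494330-161496684) shares 27.8% of its stretches of 100 bases with its pseudogene HSPA7, and HSPE1 shares 31.7%, mostly with the readthrough gene HSPE1-MOB4. HSPA8, HSPH1, DNAJB1 and BAG3 shared none. DNAJB1 overlaps TECR on the opposite strand over 525 exonic bases, and whether counting used strand is not given in the sources used here.

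The first comparison asked how each dose differed from untreated cells of the same day. Genes are said to be called where the quasi-likelihood test of edgeR, adjusted over all genes by the Benjamini-Hochberg method, gave an adjusted p under 0.05. At 0.0005 μM none of the 10 genes was called, against 2.34% of all genes tested in either direction, none had an unadjusted p under 0.05 and DESeq2 called none. Of the 10, 3 fell at 0.005 μM, 5 fell at 0.05 μM, 4 fell at 0.5 μM and none rose. HSPA1A and HSPA1B were both among them each time. They are counted separately here and in later counts, although their reads cannot be fully told apart. In bulk RNA, fewer expressing cells and less RNA per cell cannot be told apart. Among all genes tested, the shares called lower at these doses were 0.776%, 3.23% and 1.96%. Without the C1 libraries, 5 of the 10 fell at each of these doses, and the shares of all genes called lower were 6.21%, 9.16% and 10.8%. The median log2 fold change of the 10 genes was 0.06, -0.39, -0.46 and -0.41 at the 4 doses, against medians of all genes of -0.01, 0.04, -0.01 and 0.04, and of the 11193 genes above 8 CPM of -0.04, -0.12, -0.11 and -0.11. The 4 comparisons share the C2 libraries, so a high or low C2 value moves all of them together. The calls of HSPA6, HSPA1A, HSPA1B and DNAJB1 at 0.5 μM were kept whichever library was left out. At 0.05 μM some calls were lost without a library of C2, of 0.005 μM or of 0.05 μM. All calls at 0.005 μM were lost without either library of C2, of 0.0005 μM or of 0.005 μM. In fits that lost calls fewer of all genes were called too, and without a C1 library more were. The log2 fold change of the HSPA1A and HSPA1B sum then ran from -1.08 to -1.03 at 0.005 μM, from -1.39 to -1.30 at 0.05 μM and from -2.04 to -1.79 at 0.5 μM.

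**Figure D2:**
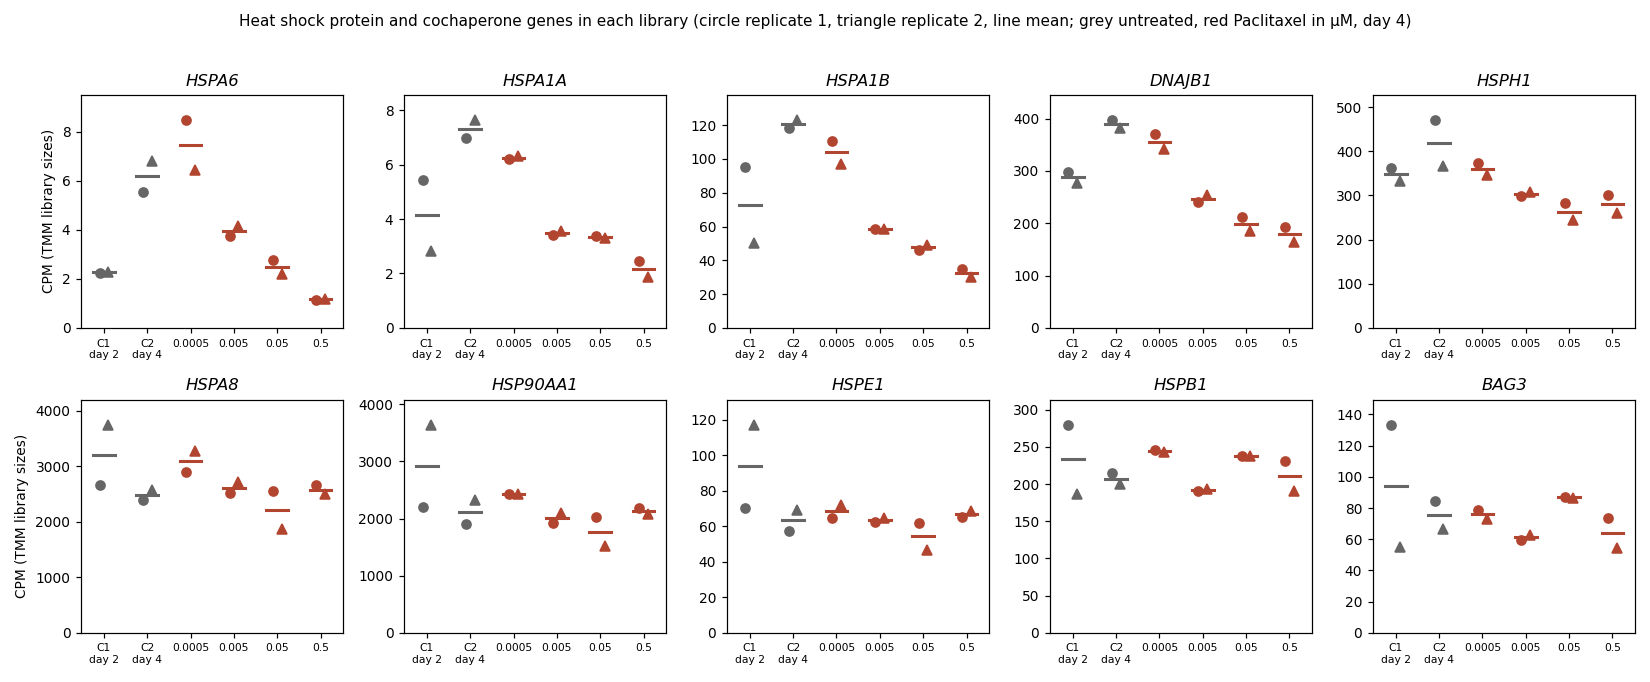
Level of each gene in every library, in CPM with TMM-scaled library sizes on the y axis, by condition on the x axis. Circles and triangles are replicates 1 and 2, lines are means, grey is untreated and red is Paclitaxel by dose in μM; HSPA6, HSPA1A, HSPA1B and DNAJB1 step down from 0.0005 to 0.5 μM, while HSPA8, HSP90AA1, HSPE1, HSPB1 and BAG3 overlap between C2 and 0.5 μM.

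HSPA6 encodes a strictly stress-inducible HSP70 found in humans but not in rodents. Its level was 2.23 and 2.30 CPM in C1, 5.55 and 6.83 CPM in C2, 8.49 and 6.46 CPM at 0.0005 μM, 3.74 and 4.17 CPM at 0.005 μM, 2.78 and 2.19 CPM at 0.05 μM, and 1.14 and 1.196 CPM at 0.5 μM. The libraries at 0.0005 μM overlapped those of C2, those of each higher dose lay below all libraries of the dose before it, and the 0.5 μM libraries lay below every other library, C1 included. The fall against C2 was 2.49-fold at 0.05 μM (log2 fold change -1.32, SE 0.20, edgeR adjusted p = 0.00286) and 5.29-fold at 0.5 μM (-2.40, SE 0.21, edgeR adjusted p = 0.000145), and at 0.005 μM the difference was not called (-0.64, SE 0.19, edgeR adjusted p = 0.0967). Between 0.0005 and 0.5 μM the fall was 6.41-fold (-2.68, SE 0.21, edgeR adjusted p = 0.000307). The untreated libraries are not compared in this fold, but the SE and adjusted p use a spread estimated from all 12 libraries.

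The pseudogene copy HSPA7, counted at 5 to 104 reads per library, differed from C2 by a log2 fold change of -2.40 at 0.5 μM (SE 0.43, edgeR adjusted p = 0.00886). Given the shared stretches, reads of HSPA6 and HSPA7 cannot be fully told apart.

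HSPA1A and HSPA1B encode the main stress-inducible HSP70, and their proteins are nearly the same. Summed, they were at 100.6 and 53.1 CPM in C1, 125 and 131 CPM in C2, 117 and 103 CPM at 0.0005 μM, 62.0 and 61.8 CPM at 0.005 μM, 49.7 and 52.2 CPM at 0.05 μM, and 37.2 and 31.8 CPM at 0.5 μM. All libraries from 0.005 μM upwards lay at less than the lowest library of C2 or 0.0005 μM, and the C1 libraries were far apart, with replicate 1 near 0.0005 μM and replicate 2 near 0.05 μM. The sum was 2.07-fold lower than C2 at 0.005 μM (-1.05, SE 0.23, edgeR adjusted p = 0.0296), 2.51-fold lower at 0.05 μM (-1.33, SE 0.23, edgeR adjusted p = 0.00585) and 3.71-fold lower at 0.5 μM (-1.89, SE 0.24, edgeR adjusted p = 0.00128).

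Taken separately, both copies were called at the same 3 doses. HSPA1A lay at 6.97 and 7.65 CPM in C2 and at 2.45 and 1.86 CPM at 0.5 μM, a log2 fold change of -1.76 (SE 0.26, edgeR adjusted p = 0.0031). HSPA1B lay at 118 and 123 CPM in C2 and at 34.8 and 29.9 CPM at 0.5 μM, with -1.90 (SE 0.24, edgeR adjusted p = 0.00126).

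DNAJB1 encodes the HSP40 partner of the inducible HSP70, which also restrains HSF1. It was at 298 and 278 CPM in C1, 398 and 382 CPM in C2, 370 and 342 CPM at 0.0005 μM, 240 and 254 CPM at 0.005 μM, 211 and 185 CPM at 0.05 μM, and 193 and 164 CPM at 0.5 μM. Both 0.0005 μM libraries lay just under the C2 libraries, and all libraries of the 3 higher doses lay below both C1 libraries. At 0.005 μM it fell by 0.66 on the log2 scale (SE 0.14, edgeR adjusted p = 0.0288), at 0.05 μM to a log2 fold change of -0.97 (SE 0.14, edgeR adjusted p = 0.00248) and at 0.5 μM to one of -1.13 (SE 0.14, edgeR adjusted p = 0.0015), which is 2.18-fold below C2.

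HSPH1 encodes HSP110, an exchange factor for HSP70. Its level was 472 and 366 CPM in C2, 374 and 347 CPM at 0.0005 μM, 298 and 307 CPM at 0.005 μM, 282 and 245 CPM at 0.05 μM, and 301 and 260 CPM at 0.5 μM. The C2 libraries were further apart than those of any other condition, and the 0.5 μM libraries overlapped those of 0.005 and 0.05 μM. It fell at 0.05 μM (-0.67, SE 0.16, edgeR adjusted p = 0.0259), while at 0.5 μM the log2 fold change of -0.58 (SE 0.16, edgeR adjusted p = 0.0550) was not called; with both C1 libraries left out it was called there and also at 0.005 μM. The call at 0.05 μM was lost without C2 replicate 1 (edgeR adjusted p = 0.255) and without either library of 0.005 μM or of 0.05 μM.

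The genes expressed most highly were not called at any dose. HSPA8 lay at 2385 and 2582 CPM in C2, 2900 and 3279 CPM at 0.0005 μM, 2512 and 2723 CPM at 0.005 μM, 2559 and 1878 CPM at 0.05 μM, and 2668 and 2492 CPM at 0.5 μM, with a log2 fold change of 0.06 and a 95% confidence interval of -0.40 to 0.51 at the highest dose. The 0.0005 μM libraries were its highest of day 4, but no dose was called against C2. HSP90AA1 lay at 1900 and 2324 CPM in C2, 2433 and 2437 CPM at 0.0005 μM, 1924 and 2103 CPM at 0.005 μM, 2022 and 1517 CPM at 0.05 μM, and 2193 and 2084 CPM at 0.5 μM, with 0.02 and an interval of -0.49 to 0.53. For both genes the 0.5 μM libraries overlapped those of C2, and the intervals do not show that the levels were equal.

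HSPE1 encodes the mitochondrial cochaperonin HSP10, which caps the HSP60 barrel. It was at 57.5 and 69.1 CPM in C2, from 46.6 to 71.8 CPM in the libraries of the 3 lower doses, and at 65.4 and 68.7 CPM at 0.5 μM (log2 fold change 0.08, 95% confidence interval -0.39 to 0.56). HSPB1, encoding HSP27, was at 215 and 200 CPM in C2, 245 and 243 CPM at 0.0005 μM, 190 and 193 CPM at 0.005 μM, 238 and 237 CPM at 0.05 μM, and 231 and 191 CPM at 0.5 μM (0.03, interval -0.37 to 0.42). The levels of HSPB1 were nearly equal within each of the 3 lower doses and went down and up again between them. BAG3, a cochaperone that links HSP70 to small heat shock proteins and to autophagy, was at 84.7 and 66.8 CPM in C2, 78.9 and 73.2 CPM at 0.0005 μM, 59.8 and 62.8 CPM at 0.005 μM, 87.1 and 86.7 CPM at 0.05 μM, and 73.8 and 54.6 CPM at 0.5 μM (-0.24, interval -0.90 to 0.42). These 3 genes overlapped between C2 and 0.5 μM, and BAG3 had the widest interval of the 10. Both 0.5 μM libraries lay below both C2 libraries for HSPA6, HSPA1A, HSPA1B, HSPH1 and DNAJB1, that is 5 of the 10, against 27.3% of all genes tested.

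**Figure D3:**
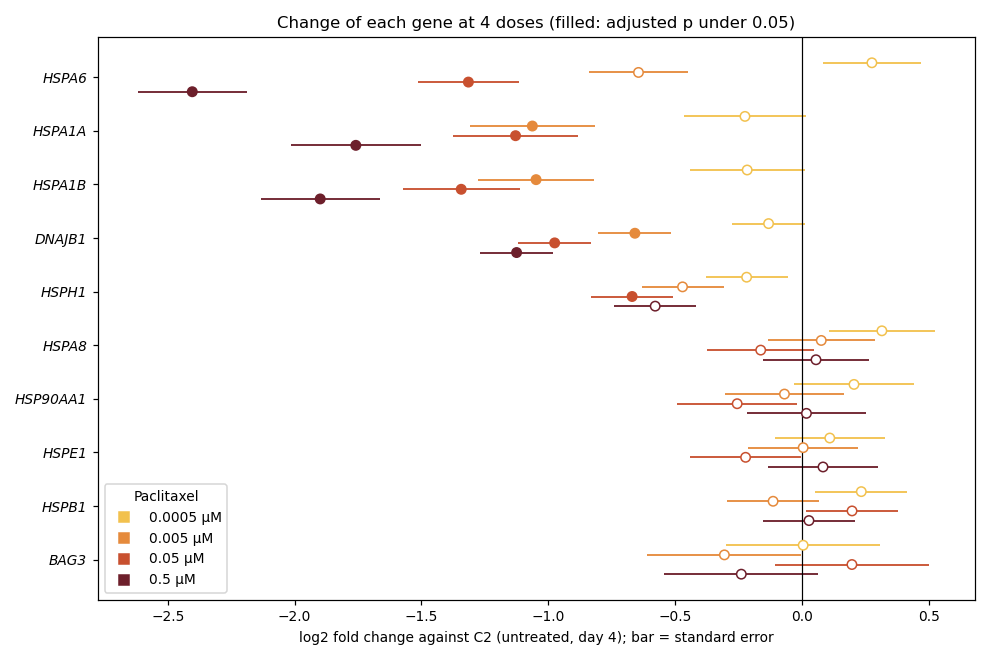
Log2 fold change of each gene at each dose against C2 on the x axis, with bars of 1 standard error from edgeR's quasi-likelihood fit. Colours give the dose in μM and filled points have an adjusted p under 0.05; HSPA6 reaches -2.40 at 0.5 μM and DNAJB1 -1.13, while the 5 genes at the bottom lie between -0.31 and 0.32 at every dose.

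The next comparison asked whether levels followed dose within the 8 treated libraries. The slope on log10 dose was negative for all 10 genes, against 47.8% of the 25057 genes tested. The median slope of genes above 8 CPM was -0.02. HSPA6, HSPA1A, HSPA1B and DNAJB1 were called, against 2.11% of all genes called with a negative slope. Per 10-fold rise in dose, HSPA6 fell by 0.86 on the log2 scale (SE 0.06, edgeR adjusted p = 2.0e-06), HSPA1A and HSPA1B together by 0.53 (SE 0.04, edgeR adjusted p = 8.35e-06) and DNAJB1 by 0.33 (SE 0.05, edgeR adjusted p = 0.00115). The slope of HSPH1 was -0.13 (SE 0.05, edgeR adjusted p = 0.148), and those of the remaining 5 lay between -0.10 (HSPA8) and -0.02 (BAG3), none called. The same 4 genes were called between 0.0005 and 0.5 μM, where 0.337% of all genes were called lower. The 4 were called as well with both C1 libraries left out, with 3.69% of all genes called lower. HSPA6 kept its call in that comparison with any 1 library left out, but the others lost theirs without either library of 0.0005 or 0.5 μM. Fewer of all genes were then called as well. The log2 fold change ran from -2.87 to -2.47 for HSPA6, from -1.80 to -1.56 for the HSPA1A and HSPA1B sum and from -1.13 to -0.88 for DNAJB1. The 4 slopes kept their calls whichever treated library was left out, and the untreated libraries do not enter the slope.

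In the fit of all libraries, no gene of the 10 and no gene of the 25249 was called at any of the 3 steps between neighbouring doses with edgeR, while DESeq2 called none of the 10 and 0, 32 and 4 of all genes at the steps. These counts depended on the fit. With only the 4 libraries of a comparison, BAG3, DNAJB1, HSPA1A, HSPA1B, HSPA6 and HSPB1 were called lower from 0.0005 to 0.005 μM, among 2187 of all genes, and BAG3 was called from 0.005 to 0.05 μM, among 348. With both C1 libraries left out HSPA1B was called at the first step, among 6 of all genes. In the fit of all libraries and without adjustment, p was under 0.05 for 4 of the 10 genes from 0.0005 to 0.005 μM, for 2 from 0.005 to 0.05 μM and for 3 from 0.05 to 0.5 μM. By p among the 25249 genes, the last of these ranked 244 (HSPA1A), 1486 (DNAJB1) and 378 (HSPA1B). The step from 0.0005 to 0.005 μM was the largest for the HSPA1A and HSPA1B sum (-0.83, SE 0.23) and for DNAJB1 (-0.53, SE 0.14), whereas HSPA6 had steps of -0.92, -0.67 and -1.09 (SE 0.19, 0.20 and 0.22). The differences between steps were not tested.

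Between day 2 and day 4 of the untreated cultures 1 of the 10 genes was called: HSPA6 was 2.73-fold higher in C2 (log2 fold change 1.45, SE 0.21, edgeR adjusted p = 0.00948), against 0.321% of all genes called higher. Both C1 libraries lay below both C2 libraries of HSPA6, and their values of 2.23 and 2.30 CPM were close together although C1 was the condition whose libraries differed most. The HSPA1A and HSPA1B sum was 0.74 higher on the log2 scale in C2 (SE 0.23, edgeR adjusted p = 0.333) and DNAJB1 0.44 higher (SE 0.14, edgeR adjusted p = 0.348), neither called. HSPE1 (-0.56), HSP90AA1 (-0.47), HSPA8 (-0.37), BAG3 (-0.32) and HSPB1 (-0.17) had negative log2 fold changes that were not called. The count of genes called depended on single libraries: it was 5 without C1 replicate 1, 2 without C1 replicate 2, and 0 without C2 replicate 2. The number of all genes called moved more, from 82 to 2682, 1884 and 49 in these fits. Without C1 replicate 1, HSPA1A and HSPA1B were called higher in C2, and HSP90AA1 and HSPE1 lower, beside HSPA6. Without C1 replicate 2, BAG3 was called lower.

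Of the 10 genes, none was called when all 8 treated libraries were set against all 4 untreated ones, a comparison in which 24.4% of all genes were called in either direction. The treated libraries were all of day 4 and the untreated ones of days 2 and 4. Differences between doses and between days count as spread in this fit. As a contrast in the model of 6 conditions, DNAJB1, HSPA1A, HSPA1B and HSPH1 were called, among 6629 of 25249 genes. An unadjusted p under 0.05 was found for 3 of them (HSPA1B, HSPH1 and DNAJB1), and DESeq2 called HSPH1. By p they ranked only 8416, 6233 and 7616 among the 25249 genes tested. Without 0.0005 μM replicate 1 the count was 3 (HSPA1B, HSPH1 and DNAJB1), among 6041 of 26744 genes. Without its replicate 2 it was 2, among 6627 of 26854. Without C1 replicate 2 it was 1, among 7078 of 26797, and without both C1 libraries 1, among 3408 of 25109. For all 10 genes the treated and untreated libraries overlapped, whereas 5.77% of all genes had every treated library below every untreated one. For HSPA6 the treated libraries ran from 1.14 to 8.49 CPM, with a median of 3.26, and spanned the whole untreated range of 2.23 to 6.83 CPM.

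Across the 12 libraries the genes fell into sets that varied together, given here as a description without a test, since the libraries share depth, quality and conditions. The first set held HSPA6, HSPA1A, HSPA1B, DNAJB1 and HSPH1, with Pearson's r of 0.95 between the HSPA1A and HSPA1B sum and DNAJB1 (Spearman's rho 0.94, and r = 0.93 without the 2 libraries farthest from the median) and 0.91 between HSPH1 and DNAJB1 (rho 0.96, r = 0.94), while r was lowest within the set, at 0.63, between HSPA6 and HSPH1. The second set held HSPA8, HSP90AA1 and HSPE1, with r = 0.96 between HSP90AA1 and HSPE1 (rho 0.89, r = 0.74) and 0.94 between HSP90AA1 and HSPA8 (rho 0.92, r = 0.81). HSPB1 and BAG3 formed another pair, with r = 0.90 (rho 0.83, r = 0.82). Between genes of different sets r ran from -0.38 to 0.44, as between the HSPA1A and HSPA1B sum and HSPA8 (r = 0.13, rho 0.20, and r = 0.31 without the 2 farthest libraries). Between that sum and HSPB1 r was 0.31, and 0.54 without the 2 farthest. Over the 10 libraries without C1, r was 0.98 between the HSPA1A and HSPA1B sum and DNAJB1, 0.91 between HSP90AA1 and HSPE1 and 0.83 between HSPB1 and BAG3, and r between genes of different sets ran from -0.57 to 0.49.

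The second set and the pair of HSPB1 and BAG3 showed their widest contrast inside C1. HSP90AA1 was at 2207 and 3646 CPM in C1, HSPA8 at 2669 and 3754 CPM and HSPE1 at 70.1 and 117 CPM, with replicate 2 the highest of all 12 libraries for each of them. BAG3 was at 134 and 55.1 CPM and HSPB1 at 280 and 186 CPM, with replicate 1 the highest of all libraries. Replicate 2 was also the library with the highest mitochondrial share (7.74%), and the second library at 0.05 μM, which had the lowest mitochondrial share (3.73%), had the lowest HSPA8 (1878 CPM), HSP90AA1 (1517 CPM) and HSPE1 (46.6 CPM). The part of library quality in these levels was not tested.

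**Figure D4:**
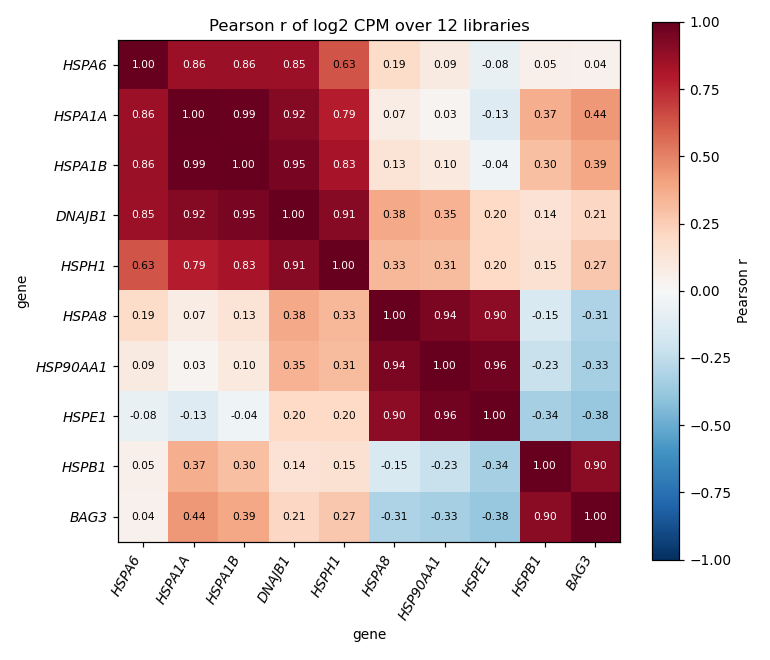
Pearson's r of log2 CPM between the genes over 12 libraries, from -1 (blue) to 1 (red), with both axes listing the genes in the same order. The upper left block holds HSPA6, HSPA1A, HSPA1B, DNAJB1 and HSPH1, the middle block HSPA8, HSP90AA1 and HSPE1, and the lower right block HSPB1 and BAG3, where r is 0.90.

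With C1 included, the genes outside the 10 whose log2 CPM was most like HSPA6 over the 12 libraries, of 11083 genes compared, were CRIP2 (r = 0.955), ZNF266 (0.907), SLC41A2 (0.906), ERRFI1 (0.901) and SHFL (0.900). Those most like the HSPA1A and HSPA1B sum were EFHD2 (r = 0.977), JUND (0.968), GALNT18 (0.960), SHMT2 (0.952) and ERO1A (0.950).

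Chaperone genes outside the 10 were described by lists of related genes, read against the 1.96% of all genes called lower and 4.36% called higher at 0.5 μM and against the median of -0.11 of genes above 8 CPM. At 0.5 μM against C2, among the other HSP70 and HSP110 genes 1 of 12 was called lower (HSPA7) and the list had a median log2 fold change of -0.05. Among the other HSP40 genes 1 of 35 was called lower and 1 higher, with a median of -0.11. DNAJC13, an endosomal HSP40 protein, was the one that fell (-0.53, SE 0.14, edgeR adjusted p = 0.0406). DNAJA4 rose (1.82, SE 0.29, edgeR adjusted p = 0.00464) from a low level, with a mean of 0.677 CPM, and is named because it was the single gene called higher, after its values were seen. With both C1 libraries left out, where 10.8% of all genes were called lower and 9.25% higher, the HSP40 genes gave 7 lower and 3 higher, and the HSP70 and HSP110 genes 3 lower.

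No gene was called at 0.5 μM among 18 other HSP90 genes and cochaperones (median -0.13, 3 with an unadjusted p under 0.05), 11 HSP70 exchange factors and regulators (-0.03, 1 unadjusted) or 15 chaperonin and prefoldin genes (0.09, 0 unadjusted). When C1 was left out, 4 of the 18, 1 of the 11 and none of the 15 (3 unadjusted) were called, all lower. HSP90AB1, the more constitutive cytosolic HSP90, had a log2 fold change of -0.26 (SE 0.17), and HSPD1, the partner of HSPE1 that shares its promoter region, 0.09 (SE 0.17). HSPA4, an HSP110 relative, had -0.07 (SE 0.14), the mitochondrial HSP70 gene HSPA9 0.04 (SE 0.16), DNAJA1, an HSP40 gene, -0.15 (SE 0.18), STIP1, which couples HSP70 to HSP90, -0.01 (SE 0.16), and SERPINH1, the collagen chaperone, -0.09 (SE 0.19), none of them called. HSPA5, the HSP70 of the endoplasmic reticulum, was not called at 0.5 μM (-0.34, SE 0.18, edgeR adjusted p = 0.29), but its slope on log10 dose was negative (-0.21, SE 0.05, edgeR adjusted p = 0.0359). Negative slopes were also called for HSPA7 (-0.84, SE 0.10, edgeR adjusted p = 0.000526), DNAJB9 (-0.32, SE 0.05, edgeR adjusted p = 0.0027) and DNAJC3 (-0.17, SE 0.04, edgeR adjusted p = 0.0295). Of the 35 other HSP40 genes 1 was called with a positive slope. Among all genes 2.11% were called with a negative slope and 1.04% with a positive one.

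The heat shock factors themselves were not called at 0.5 μM: HSF1, the main activator of these genes, had a log2 fold change of 0.02 (SE 0.28) and HSF2 of -0.03 (SE 0.14), and none of the 5 factors and regulators tested had an unadjusted p under 0.05. Among 21 other heat-inducible genes, 1 was called higher at 0.5 μM (DNAJA4 again, on both lists) and none lower, with a median of -0.02, near the median of all genes (0.04), while the 10 genes had a median of -0.41. Leaving out both C1 libraries gave 2 called lower and 1 higher. Between 0.0005 and 0.5 μM, a fold change that does not use C2, 19 of these 21 were negative, against 46.9% of all genes. Of the 21, 1 was called (4 with both C1 libraries left out). Their median was -0.26, against -0.31 for the 10 genes, 0.03 for all genes and -0.074 for genes above 8 CPM. At 0.0005 μM against C2, however, 20 of the 21 were higher, with a median of 0.19. There 2 were called higher, against 1.87% of all genes. From 0.0005 to 0.005 μM all 21 were negative, against 51.4% of all genes, and none was called. Their median was -0.27, against -0.33 for the 10 and -0.11 for genes above 8 CPM. The slope on log10 dose was negative for 19 of the 21, against 47.8% of all genes, with DEDD2 called (-0.22, SE 0.04, edgeR adjusted p = 0.00453). Of 8 other small heat shock proteins 3 passed the filter, and none of these had an unadjusted p under 0.05 at 0.5 μM. All 3 were higher than C2 at every dose. Of them 1 was called higher at 0.0005 μM and 1 at 0.05 μM, against 1.87% and 5.09% of all genes.

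In the comparison of treated with untreated libraries, 11.3% of all genes were called lower and 13.1% higher, and the counts of related genes are read against these shares. With both C1 libraries left out the number of all genes called went from 6155 to 3408, with 6.42% lower and 7.16% higher. HSPB8, the small heat shock protein that BAG3 binds, rose by 1.11 on the log2 scale (SE 0.20, edgeR adjusted p = 0.000974), and ZFAND2A, a stress-induced proteasome regulator, by 0.54 (SE 0.13, edgeR adjusted p = 0.00491). FKBP5, an HSP90 cochaperone of steroid receptors, fell by 0.63 (SE 0.12, edgeR adjusted p = 0.00097) and CHORDC1, an HSP90 cochaperone, fell by 0.42 (SE 0.12, edgeR adjusted p = 0.0152). Of the 35 other HSP40 genes, 6 were called lower and 2 higher here, among them DNAJC13 (-0.50), DNAJC9 (-0.60) and DNAJC16 (-0.39), which fell, and DNAJC25 (0.40), which rose. Of the 18 HSP90 genes and cochaperones 3 were called lower, PPP5C (-0.48) being the other one, and of the 11 exchange factors 3 were called lower (BAG5, HSPBP1 and GRPEL2, -0.25 to -0.33) and 1 higher (BAG1, 0.26). Among the chaperonins and prefoldin genes TCP1 was the single one called (-0.32), and none of the 12 other HSP70 and HSP110 genes or the 5 heat shock factors was called, with 1 and 0 of them at an unadjusted p under 0.05. With both C1 libraries left out, HSPB8, FKBP5, PPP5C, DNAJC9, DNAJC13, DNAJC16 and DNAJC25 were still called, whereas ZFAND2A, CHORDC1, TCP1 and all 4 exchange factors were not. The log2 fold changes no longer called were 0.45 (ZFAND2A), -0.37 (CHORDC1), -0.18 (TCP1), 0.27 (BAG1), -0.25 (BAG5), -0.16 (HSPBP1) and -0.14 (GRPEL2). The HSP40 genes then gave 3 lower and 3 higher, and the HSP90 genes and cochaperones 2 lower.

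Immediate early genes, which cells induce within minutes of stimulation or of handling, were examined because tissue digestion can raise both groups. At 0.5 μM against C2, 8 of 18 were called lower and 1 higher, with a median log2 fold change of -0.52, against 1.96% and 4.36% of all genes. FOSB fell at 0.5 μM (-3.39, SE 0.37, edgeR adjusted p = 0.000632), as did NR4A1 (-2.30, SE 0.41, edgeR adjusted p = 0.00853) and KLF2 (-1.84, SE 0.32, edgeR adjusted p = 0.00762), while EGR1 rose there (1.34, SE 0.25, edgeR adjusted p = 0.00986). At 0.05 μM 6 were called lower and 3 higher, with a median of -0.095, against 3.23% and 5.09% of all genes. At 0.005 μM 7 were called lower and none higher, with a median of -0.62, against 0.776% and 2.5% of all genes. Leaving out both C1 libraries gave 10 lower and 3 higher at 0.5 μM, 7 and 4 at 0.05 μM, and 10 and 1 at 0.005 μM. Of all genes, 10.8% were then called lower and 9.25% higher at 0.5 μM, 9.16% and 10% at 0.05 μM, and 6.21% and 6.48% at 0.005 μM. At 0.0005 μM, where none of the 10 heat shock genes was called, 1 was called lower, 12 had an unadjusted p under 0.05, and 7 lower and 4 higher were called with both C1 libraries left out, against 4.56% and 5.7% of all genes in that fit. From 0.0005 to 0.005 μM all 18 had a negative log2 fold change, against 51.4% of all genes, none called, with a median of -0.42, 7 of them at an unadjusted p under 0.05. From 0.005 to 0.05 μM 17 of the 18 were higher (median 0.33), while 8 of the 10 heat shock genes were lower (-0.21). From 0.05 to 0.5 μM all 18 were lower (-0.44), and 6 of the 10 (-0.16). In C2 against C1 16 of the 18 were higher (0.49), and 5 of the 10 (0.05). None of the 18 was called in these comparisons. The part of handling in the levels of the heat shock genes was not tested.

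**Figure D5:**
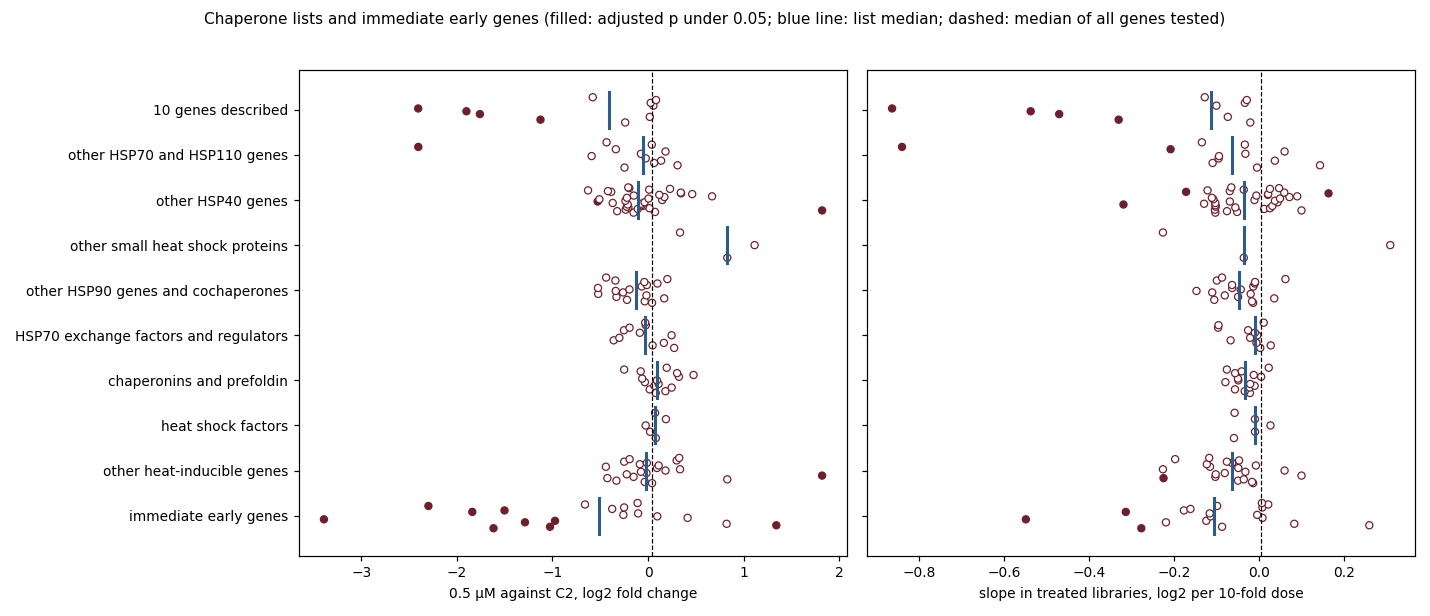
Log2 fold change at 0.5 μM against C2 (left) and slope per 10-fold dose in the treated libraries (right) on the x axes, with 1 point per gene and 1 row per list. Filled points have an adjusted p under 0.05, blue lines are list medians and the dashed line is the median of all genes tested; the 10 genes described have a median of -0.41 at 0.5 μM and immediate early genes -0.52, while the other chaperone lists lie nearer to 0, except for the 3 small heat shock proteins tested, with a median of 0.83.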

How the data were processed

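Total RNA of 12 cultures was sequenced as paired-end reads. The authors trimmed reads with Trimmomatic 0.39, checked them with FastQC 0.11.9, aligned them to GRCh37 with STAR 2.7.5 and counted unique alignments over exons with Rsubread, and the deposited values are raw counts per Ensembl identifier. The single-sample files were identical to the table of the series in all 12 cases.

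Counts were scaled by TMM and filtered with filterByExpr over the 6 conditions, and a quasi-likelihood model with robust estimation was fitted in edgeR 4.0.16 (R 4.3.3). Two-sided p-values were adjusted over all genes by the Benjamini-Hochberg method and genes were called at an adjusted p under 0.05. The share of all genes with an unadjusted p under 0.05 was not computed, so counts at that threshold have no background. A standard error is the ratio of the absolute log2 fold change to the root of the F statistic. The slope used the 8 treated libraries, and the comparison of treated with untreated libraries a fit of its own. Log2 CPM used a prior count of 2. An exact permutation test of 2 against 2 libraries cannot go below p = 0.333. DESeq2 1.42.0 was an alternative. The genes and lists were chosen with earlier results of these data known; genes of a list are named if called in treated against untreated libraries, with a mean of at least 5 CPM and among the 4 smallest p-values, or as fixed examples. This rule was not applied to the cell line markers. DNAJA4, DEDD2, HSPA7, DNAJB9 and DNAJC3 fall outside it. They and the markers PDGFRA, EGFR, COL1A1, CDH1 and EPCAM were named after their values were seen. HSPB11 and PECAM1 had no identifier by symbol.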

Additional observations from a re-analysis of the deposited data

How the results depend on the processing

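The count of the 10 genes called at 0.5 μM against C2 (4 or 5) and the slope on log10 dose (4 or 5) held under all alternatives run, and no called fold change reversed. Leaving out an untreated library cannot change the slope, which does not use these libraries. Treated against untreated, where none was called, gave 1 gene with DESeq2, with RLE normalization, with a replicate block and with both C1 libraries left out (an alternative added after the data were seen), and 4 as a contrast in the model of 6 conditions, where the HSPA1A and HSPA1B sum was called (-0.75, edgeR adjusted p = 0.0021). With no filter beyond 1 count, C2 against C1 gave 2 genes, the 3 dose steps together 4, and the sum was called in C2 against C1 (0.73, edgeR adjusted p = 0.0169). With only the 4 samples of a comparison, 5 genes were called at 0.005 μM, 0 in C2 against C1, 6 from 0.0005 to 0.005 μM and 1 from 0.005 to 0.05 μM. With both C1 libraries left out, 5 genes were called at 0.005 μM and 1 at the dose steps. The cause of these differences was not tested.

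Values that were not called changed sign in a few settings. Treated against untreated, HSPB1 was -0.0070 with DESeq2 and -0.0070 with RLE, HSPA8 was 0.0023 with upper quartile normalization and 0.089 with both C1 libraries left out, and HSPE1 was 0.0071 with both left out. With upper quartile normalization, which moved the median of all genes to 0.15 at 0.005 and 0.5 μM, HSPB1 was 0.0052 and HSP90AA1 0.044 at 0.005 μM, and HSPE1 was 0.032 between 0.0005 and 0.5 μM.

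Leaving out 1 library at a time, where a lone library is assumed to vary like those of other conditions, the count of genes called ran from 0 to 5 at 0.005 μM, from 2 to 5 at 0.05 μM, from 1 to 4 between 0.0005 and 0.5 μM, from 0 to 5 in C2 against C1, from 0 to 3 in treated against untreated, and from 0 to 1 at the dose steps. The log2 fold change of the HSPA1A and HSPA1B sum ran from -1.08 to -1.03 at 0.005 μM, from -1.39 to -1.30 at 0.05 μM, from -1.80 to -1.56 between 0.0005 and 0.5 μM, from 0.38 to 1.27 in C2 against C1, and from -0.87 to -0.54 in treated against untreated. It lost its call at 0.005 μM without either library of C2, 0.0005 or 0.005 μM or without 0.05 μM replicate 2, at 0.05 μM without 0.05 μM replicate 2, and between 0.0005 and 0.5 μM without either library of 0.0005 or of 0.5 μM, and gained one in C2 against C1 without C1 replicate 1.

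Log2 fold changes that changed sign when 1 library was left out, none of them called in the fit of all libraries, ran against C2 at 0.0005 μM from -0.016 to 0.24 (HSPE1) and -0.17 to 0.19 (BAG3), at 0.005 μM from -0.21 to 0.072 (HSP90AA1) and -0.12 to 0.13 (HSPE1), and at 0.05 μM from -0.41 to 0.016 (HSPA8). At 0.5 μM they ran from -0.026 to 0.10 (HSPA8), -0.15 to 0.16 (HSPB1), -0.12 to 0.16 (HSP90AA1) and -0.046 to 0.21 (HSPE1). In C2 against C1 they ran from -0.40 to 0.16 (HSPB1) and -0.79 to 0.46 (BAG3), the latter called at its lowest value, without C1 replicate 2. Between 0.0005 and 0.5 μM HSPE1 ran from -0.10 to 0.044, between 0.005 and 0.05 μM HSP90AA1 from -0.41 to 0.010, and between 0.05 and 0.5 μM HSPA8 from -0.0046 to 0.46 and HSPH1 from -0.051 to 0.20. The slope ran from -0.046 to 0.051 (BAG3) and -0.067 to 0.0034 (HSPE1). Treated against untreated, HSPA6 ran from -0.46 to 0.15, HSPA8 from -0.20 to 0.061, HSPB1 from -0.048 to 0.14 and BAG3 from -0.38 to 0.059.

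Same-numbered replicates did not deviate together in every pair of conditions: over 15 pairs of conditions the correlation of their deviations ran from -0.58 to 0.57, and 7 of 15 were over 0.1. With the replicate number as a block, which moved the genes called at 0.5 μM from 4 to 5, the number of all genes called there went from 1596 to 1806 and for the slope from 789 to 421. The number of all genes called at 0.5 μM was 2317 with DESeq2, 2807 with no filter and 5033 with both C1 libraries left out. It was 129 without C2 replicate 1, 569 without C2 replicate 2, 480 without 0.5 μM replicate 1 and 259 without its replicate 2. It rose from 592 to 1173 at 0.0005 μM, from 827 to 1362 at 0.005 μM, from 82 to 271 in C2 against C1, from 104 to 601 between 0.0005 and 0.5 μM and from 789 to 1690 for the slope with DESeq2.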
